A study of Mus musculus with 5 samples.

Results

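The Notch pathway was described through 10 genes of 24299 that had at least 1 transcript molecule in any library: the receptors Notch1, Notch2, Notch3 and Notch4, the ligands Jag1, Jag2, Dll1 and Dll4, and the transcriptional targets Hey1 and Hes1. The genes were chosen with their pattern across cell classes in these same libraries already known, so their class pattern is given as a description, without a test. The cells came from mammary tumours of the PyMT mouse model, in which the polyoma virus middle T antigen is made in mammary epithelium and tumours arise there. The tumours were digested, enriched for viable cells and profiled either with the 10x Genomics 3' v2 droplet chemistry or with BD Rhapsody whole transcriptome chemistry, which captures cells in microwells. All groups share this mouse model, tissue and digestion. The groups were fresh 10x (2 libraries, fresh 10x 1 and fresh 10x 2), stored 10x (1 library from a digest kept at 4 °C for 24 h, with reduced viability), BD 1 (1 fresh library) and BD 2 (1 library whose title calls it fresh while its files are named for storage). BD 2 therefore stands as a group of its own, with no storage state assumed. It enters no main comparison, and was pooled with BD 1 as fresh only in alternatives that group the BD libraries by title.

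Notch receptors are transmembrane proteins that are activated by ligands on a neighbouring cell. Ligand binding exposes the receptor to ADAM proteases and then to gamma-secretase, which frees the intracellular domain to enter the nucleus, bind the DNA-binding protein Rbpj and switch on genes such as those of the Hes and Hey families. In blood vessels, Dll4 is known as the ligand of endothelial tip cells and Notch4 as an endothelial receptor, and Notch3 is the receptor best known from pericytes and vascular smooth muscle, together called mural cells. In the mammary gland, Notch signalling acts in the luminal lineage and Jag and Dll ligands are found in basal cells.

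The libraries held between 29166129 and 59957945 UMIs (unique molecular identifiers, each standing for a captured transcript molecule) with a median of 8926 to 12474 UMIs per cell, and 1864 to 4078 cells per library with at least 200 genes were clustered. Clusters were named from marker lists that hold none of the 10 genes, and the 10 genes and 46 further Notch pathway genes were kept out of the clustering. The naming gave epithelial-like (luminal), basal epithelial-like, fibroblast-like, endothelial-like, mural-like, macrophage-like, T-like and neutrophil-like cells. Every one of the 7 mural and 7 endothelial markers was detected in the class of its name in every library. The clusters were named from these same markers, so their detection is no separate support for the names. Mural-like cells numbered 68 and 60 in fresh 10x 1 and 2, 27 after storage, 12 in BD 1 and 7 in BD 2, and endothelial-like cells 175, 101, 90, 45 and 13 in the same order. Neutrophil-like cells, at most 12 in a library, are left out of the class descriptions, and 137 to 609 cells per library had no class, since their cluster stayed unnamed or they had too few genes to be clustered. The median mitochondrial share of the UMIs in epithelial-like cells was 6.6% and 7.4% in fresh 10x, 7.2% after storage, 15.6% in BD 1 and 19.4% in BD 2. Between 10x libraries, 1 to 5 cell barcode sequences were shared, and 24 between the BD libraries, none with identical counts. Levels are given as CPM, the gene's share of the UMIs of a class or library scaled to a total of 1000000, and intervals are exact 95% intervals that cover counting error only.

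Notch3, the mural receptor, and Notch4 and Dll4, the endothelial receptor and ligand, each had one class far above the rest, so the 250 bases before the RefSeq start site of each are shown. Capitals mark the string AGGAAG, a form of the motif that endothelial ETS factors are known to bind. It reads as CTTCCT when it lies on the opposite strand. Only this exact string was searched, so shorter or variant ETS motifs are not marked. The windows were also searched for the Rbpj core, which reads TGGGAA on one strand and therefore reads as TTCCCA when it lies on the opposite strand.
Notch3 (chr17:32166891-32167140, minus strand): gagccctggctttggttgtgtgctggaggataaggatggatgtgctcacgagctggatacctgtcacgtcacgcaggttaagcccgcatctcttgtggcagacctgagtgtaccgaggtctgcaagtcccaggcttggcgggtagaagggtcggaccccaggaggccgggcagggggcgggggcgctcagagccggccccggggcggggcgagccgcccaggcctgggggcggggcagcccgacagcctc
Notch4 (chr17:34564045-34564294, plus strand): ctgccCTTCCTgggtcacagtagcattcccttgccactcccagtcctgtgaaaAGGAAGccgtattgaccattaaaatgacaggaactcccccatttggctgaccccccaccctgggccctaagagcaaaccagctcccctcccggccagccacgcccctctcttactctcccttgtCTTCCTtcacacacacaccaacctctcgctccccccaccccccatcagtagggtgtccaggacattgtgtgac
Dll4 (chr2:119325534-119325783, plus strand): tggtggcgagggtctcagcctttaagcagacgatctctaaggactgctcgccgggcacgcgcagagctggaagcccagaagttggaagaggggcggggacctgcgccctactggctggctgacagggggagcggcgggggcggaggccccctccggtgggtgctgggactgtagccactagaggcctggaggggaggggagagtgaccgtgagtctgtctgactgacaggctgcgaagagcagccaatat
The sequences and positions are RefSeq's on GRCm38.p6. The Notch4 window held AGGAAG 3 times, counting both strands, and the Dll4 and Notch3 windows 0 times. Of the 8 genes with a window (Hey1 and Hes1 had none), 2 held this string, Notch4 and Dll1, against 29.5% of all 32851 windows of this length. None of the 8 held the Rbpj core, which 21.6% of all windows did. A match or its absence in such a window is a description of these letters and says nothing of binding.

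Notch3, a receptor that mural cells need to mature, was highest in mural-like cells. In mural-like cells its level was 446 and 503 CPM in the fresh 10x libraries, 767 after storage, 1371 in BD 1 and 2105 in BD 2, the last from 59 UMIs in 7 cells. In epithelial-like cells it was 14.5 and 14.8 in the fresh 10x libraries, 19.3 after storage, 44.8 in BD 1 and 46.3 in BD 2. The mural-like level was thus the highest of the compared classes in every library, and both classes had more Notch3 in the BD libraries than in any 10x library. The ratio of the mural-like to the epithelial-like level was 30.7 (interval 25.2 to 37.3) and 33.9 (28.1 to 40.6) in the fresh 10x libraries, 39.7 (31.5 to 49.6) after storage, 30.6 (24.6 to 37.8) in BD 1 and 45.4 (34.4 to 58.9) in BD 2. All 5 intervals overlap, while those of the level itself did not overlap between fresh 10x and BD in either class. Fibroblast-like cells (5.2 to 16.1), basal epithelial-like cells (4.6 to 12) and endothelial-like cells (6.4 to 60.7) were far below mural-like cells in every library, and their ranges overlap each other.

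In the BD libraries, where mural-like cells were scarce, the class with the highest Notch3 level was not the class that carried most of the transcript. Of 2313 Notch3 UMIs in BD 1, 2027 (87.6%, interval 86.2 to 88.9) lay in epithelial-like cells and 92 (3.98%, 3.22 to 4.86) in mural-like cells. Of 2077 in BD 2, 1842 (88.7%, 87.2 to 90.0) lay in epithelial-like cells and 59 (2.84%, 2.17 to 3.65) in mural-like cells. Epithelial-like cells also carried most of the transcript in the 10x libraries, with 59.5% of 556 and 62.5% of 581 UMIs in fresh 10x and 83.6% of 1027 after storage. The mural-like share there was 28.1% and 30.8% in fresh 10x and 8.37% in stored 10x. Epithelial-like cells also held most UMIs of all genes, 22795682 of 29166129 in fresh 10x 1 and 45272486 of 59957945 in BD 1. Their Notch3 level was below the whole-library level in fresh 10x (14.5 and 14.8 against 19.1 and 19.3 CPM). It was close to the whole-library level after storage (19.3 against 19.2). In BD 1 (44.8 against 38.6) and BD 2 (46.3 against 41.6) it was above that level. With each cell reduced to 2000 UMIs, so that large cells do not count for more, the epithelial-like share was 77.7% in BD 1 and 78.3% in BD 2, and the mural-like share 9.48% and 7.55%.

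**Figure D1:**
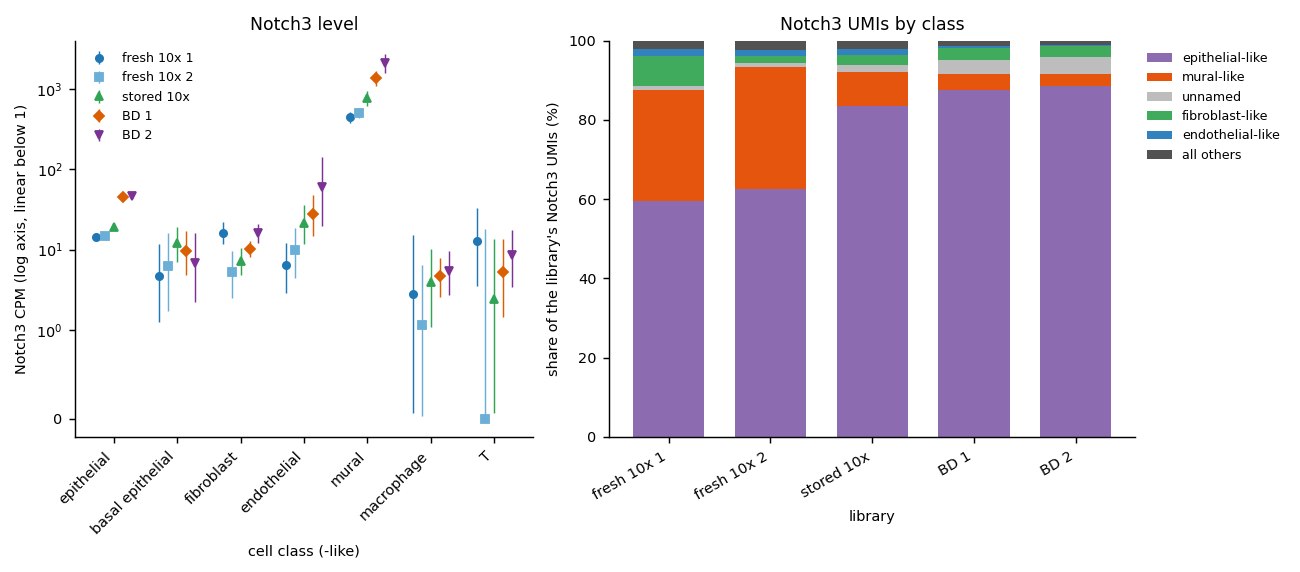
Left, Notch3 CPM (log axis, linear below 1) in 7 cell classes of the 5 libraries, with exact 95% Poisson intervals of counting error. Right, the percent of each library's Notch3 UMIs held by each class; epithelial-like cells hold 87.6% in BD 1 and 88.7% in BD 2, and mural-like cells 28.1% and 30.8% in the fresh 10x libraries.

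The epithelial signal was measured against other classes and against mural markers in the same cells. At 2000 UMIs per cell, Notch3 was found in 2.70%, 2.93%, 4.38%, 9.41% and 10.0% of epithelial-like cells of fresh 10x 1, fresh 10x 2, stored 10x, BD 1 and BD 2. Without the reduction the shares were 19.3%, 21%, 23.5%, 42.7% and 37.5%, at median depths of 11000 to 14113 UMIs. Macrophage-like cells, which should lack the gene, had it in 0.195% to 1.07% of cells after the reduction and in 0.935% to 6.11% without it, at median depths of 4542 to 11460 UMIs. The epithelial-like share was therefore above the share in macrophage-like cells in every library. The summed level of the 7 mural markers in epithelial-like cells was 8.25 and 10.4 CPM in fresh 10x, 10.7 after storage, 5.30 in BD 1 (Cspg4 at 0) and 4.45 in BD 2 (Higd1b at 0), against 14746 to 20453 in mural-like cells. Cells with at least 3 epithelial markers and not a single mural marker UMI held 81.3% of the Notch3 UMIs of BD 1 and 86.6% of those of BD 2, against 48.0% and 52.7% in fresh 10x and 70.2% in stored 10x. Mural-like cells were also fewest in the BD libraries, 12 and 7 against 68 and 60 in fresh 10x. The marker sums and these shares therefore cannot tell the source of the epithelial Notch3, which was not tested.

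Notch4, the endothelial receptor, was low outside endothelial-like cells. Its endothelial-like level was 76.5 and 105 CPM in fresh 10x, 85.1 after storage, 155 in BD 1 and 134 in BD 2 (11 UMIs). In the other classes compared it did not exceed 4.39. At 2000 UMIs per cell it was found in 12.3% to 22.3% of endothelial-like cells, and without the reduction in 32.2% to 53.8%. In T-like cells 1 Notch4 UMI was counted in the 5 libraries together, in BD 2. Endothelial-like cells held 78.3% and 77.6% of the Notch4 UMIs of the fresh 10x libraries, but 36.4% after storage, 38.8% in BD 1 and 11.8% in BD 2, where the much more numerous epithelial-like cells held 57.1%, 54.3% and 68.8%.

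Notch1, a receptor found in every class compared, was among these also highest in endothelial-like cells, at 230 and 215 CPM in fresh 10x, 152 after storage, 162 in BD 1 and 182 in BD 2. The neutrophil-like cells, left out for their number, had 208 in BD 1 and 227 in BD 2, from 12 UMIs in each, and 0 in stored 10x. Epithelial-like cells had 83.3, 94.0, 85.9, 84.6 and 85.5 in the same order, the most even level of any class. The endothelial-like level was 1.77 to 2.76 times the epithelial-like level, with an interval above 1 in every library. Fibroblast-like cells, with 13.8 to 29.2, were the lowest of the compared classes except in fresh 10x 1, where macrophage-like cells were lower, and in BD 2, where the 7 mural-like cells held no Notch1 UMI. Notch2, a receptor of stromal and myeloid cells among others, was higher in fibroblast-like cells (19.6, 18.7, 27.4, 44.5 and 36.2) than in epithelial-like cells (13, 9.49, 9.98, 18.1 and 17.7) in each library. Macrophage-like cells had 13.8 to 41.5 and overlapped both. Endothelial-like cells, at 0 to 17.0 with at most 8 UMIs in a library, had little of it.

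Dll4, the ligand of endothelial tip cells, was high only in endothelial-like cells among the classes compared. Its level there was 316 and 286 CPM in the fresh 10x libraries, 175 after storage, 204 in BD 1 and 243 in BD 2 (20 UMIs in 13 cells). The fresh 10x libraries were the highest, but the interval of BD 2 (148 to 375) covers both. At 2000 UMIs per cell, Dll4 was found in 41.6% and 39.5% of endothelial-like cells in fresh 10x, 26.2% after storage, 28.5% in BD 1 and 26.3% in BD 2, and without the reduction in 46.2% to 70.3%, at median depths of 4407 to 9319. T-like cells had 0 Dll4 UMIs in 4 libraries and 2 in stored 10x. Epithelial-like cells had 1.69 to 2.94 CPM, which nevertheless made up 55.9% of the Dll4 UMIs of BD 1 and 77% of those of BD 2.

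Jag2, a ligand known from basal mammary cells and from endothelium, separated the 2 epithelial classes. Basal epithelial-like cells had 52.1 and 63.0 CPM in fresh 10x, 73.1 after storage, 96.2 in BD 1 and 123 in BD 2, while luminal epithelial-like cells had 0.94 to 1.51. The ratio between them was 47.5 to 81.6, with a lower bound of 28.5 or more in every library. Endothelial-like cells had 77.2, 77, 65.3, 95.8 and 60.7, above basal cells in fresh 10x and level with or below them elsewhere, so the order of these classes is not resolved. Fibroblast-like cells held 0 Jag2 UMIs in fresh 10x 1, fresh 10x 2 and BD 1.

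Jag1, a ligand of mural cells and other stroma, had its highest levels in mural-like cells, at 97.3 and 138 in fresh 10x, 89.2 after storage, 209 in BD 1 and 107 in BD 2, the last from 3 UMIs. Endothelial-like cells followed with 36.5 to 104, then fibroblast-like cells with 23.5 to 45.7 and basal epithelial-like cells with 17.8 to 41.7, and these 3 ranges overlap. Luminal epithelial-like cells had 1.68 to 3.03. Fibroblast-like cells held the largest share of the Jag1 UMIs in 4 libraries, at 33.3% to 41.5%, and in BD 2 their 35.5% was second to the 40.4% of epithelial-like cells. Dll1, a ligand known from basal and luminal progenitor cells, was found in endothelial-like (19.7 to 42.6), basal epithelial-like (22.5 to 43.8) and epithelial-like cells (13.2, 23.8, 15.4, 20.1 and 16.3). Its fresh 10x libraries lay at both ends of the epithelial-like range. The basal-to-luminal ratio of Dll1 was 1.38 to 2.69, with an interval that reached 1 in stored 10x and BD 1. In fibroblast-like, mural-like, macrophage-like and T-like cells Dll1 did not exceed 7.31.

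Of the targets, Hey1, a repressor induced by Notch, was mainly epithelial among the classes compared. Epithelial-like cells had 119 and 123 CPM in fresh 10x, 142 after storage, 234 in BD 1 and 185 in BD 2, and held 93.2% to 95.6% of the Hey1 UMIs of each library. These cells hold most UMIs of all genes, and the whole-library level was 99.7, 108, 126, 185 and 154 in the same order. Fibroblast-like cells had 3.64 to 18.4 and mural-like cells 0 to 29.8. Endothelial-like cells had 70.8, 81.4, 128, 42.6 and 146, without a common order of the libraries between these classes. Hes1, a repressor with many inputs besides Notch, was broad. It was highest in endothelial-like cells (351, 327, 577, 649 and 984), at 1.64 to 3.59 times the epithelial-like level (214, 152, 251, 264 and 274). Mural-like (197 to 388) and basal epithelial-like cells (151 to 288) overlapped the epithelial-like range, and T-like cells were lowest (6.44 to 60.9).

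**Figure D2:**
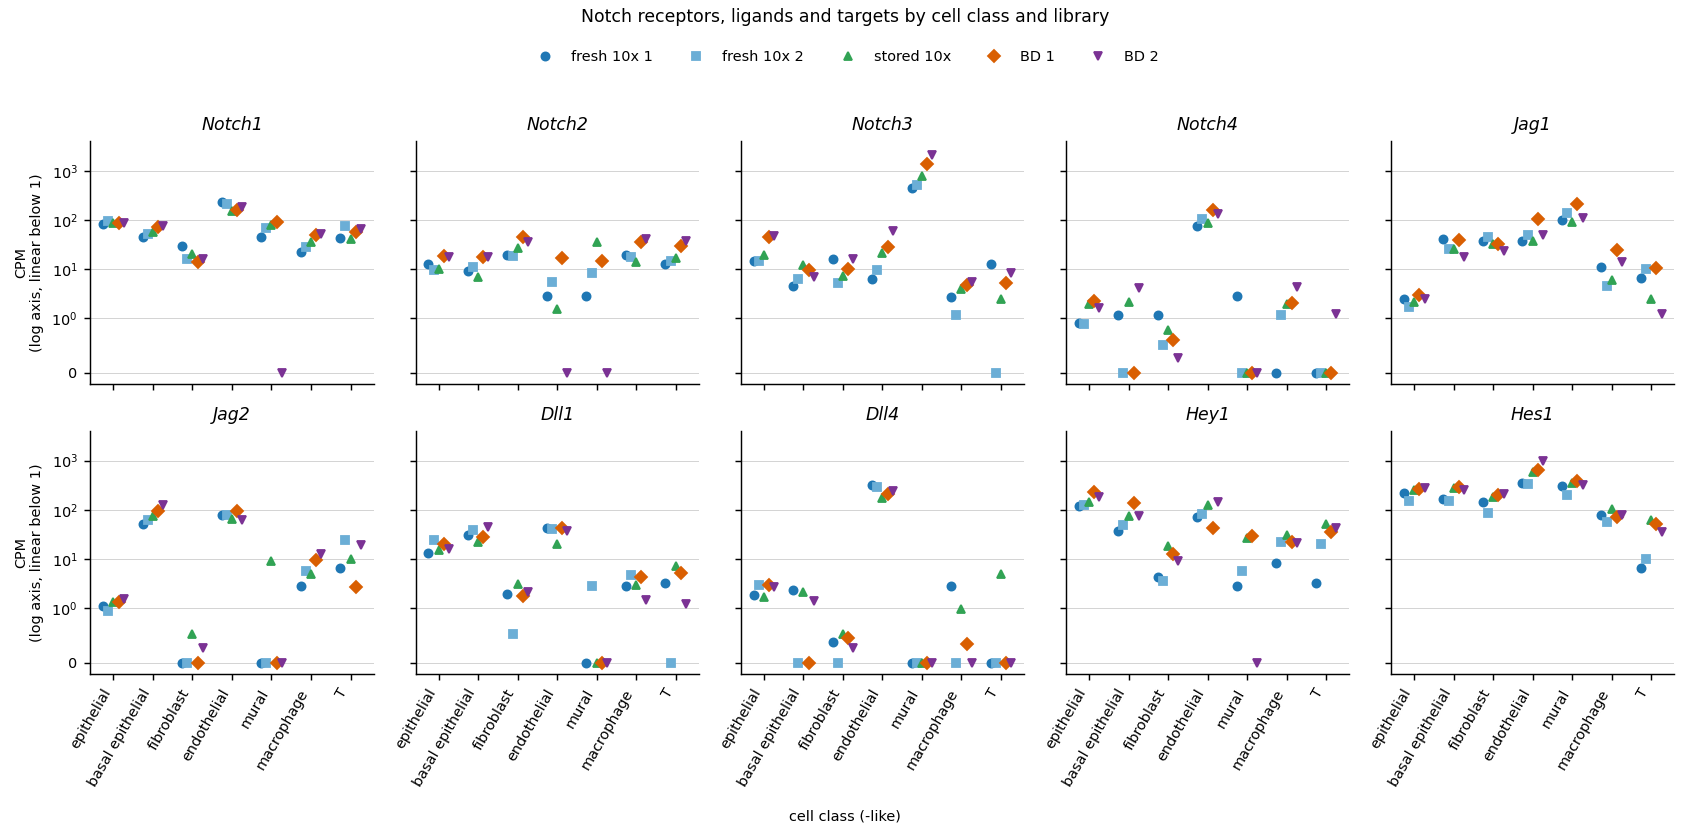
CPM of each of the 10 genes (log axis, linear below 1) in 7 cell classes, with 1 point per library. Notch4 and Dll4 stand out in endothelial-like cells, Notch3 in mural-like cells (446 to 2105), and Jag2 in basal epithelial-like and endothelial-like cells, while Notch1 and Hes1 are found in all 7 classes.

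Genes with the most similar pattern were sought over 30 sums (6 classes in 5 libraries, mural-like cells left out for their number) of log2 (CPM + 10), centred within each library, among 9250 genes. The sums of a library share its depth and chemistry, so Pearson's r is a description. Closest to Notch4 were Flt4, Mmrn2 and Gpr4 (r of 0.995, 0.995 and 0.994), of which Flt4 encodes an endothelial VEGF receptor. Closest to Dll4 were Sox7, Nova2 and Myct1 (0.996, 0.996 and 0.995), with Sox7 a transcription factor of endothelial cells. The genes closest to Dll1 were Rassf9, Tcim and Arhgef5 (0.947, 0.943 and 0.941), to Hey1 Stap2, Sorbs2 and St3gal5 (0.951, 0.929 and 0.927), and to Hes1 Sypl, Nectin2 and Ctnnd1 (0.944, 0.934 and 0.933). For Notch1 they were N4bp3, Adgrg1 and Tspan15 (0.931, 0.896 and 0.893), for Notch2 Pbxip1, Celf2 and Camk2n1 (0.909, 0.871 and 0.856), for Jag1 Pdlim7, Rsu1 and Plec (0.926, 0.902 and 0.888) and for Jag2 Lama3, Trp53i11 and Sem1 (0.904, 0.902 and 0.889). Notch3 had the weakest likeness, to Nop16, Mrps10 and Coa3 (0.812, 0.797 and 0.791). When mural-like cells were added and BD 2 left out, an alternative chosen after seeing the data, the genes closest to Notch3 were Afap1l2, Rasl12 and Chn1 (0.977, 0.975 and 0.972).

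Within the epithelial-like class the members varied between the 11 clusters present in all 5 libraries. Hes1, Hey1 and Notch1 all had their highest mean level in cluster 0 (led by Spp1, Npy and Fcgbp) and their next in cluster 2 (led by Cartpt and the interferon-induced Isg15 and Ifit1). Hes1 in cluster 0 was 347 and 252 CPM in fresh 10x, 461 after storage, 528 in BD 1 and 501 in BD 2. In cluster 12, led by the cell-cycle genes Ube2c and Birc5, it was 101, 136, 133, 167 and 153, below cluster 0 in every library. Notch1 had 117 to 148 in cluster 0 and 47.7 to 68.6 in cluster 12, so these 2 clusters did not overlap. Dll1 ranged from 2.46 to 4.92 in cluster 3 (led by Wif1, Smr2 and Slpi) to 27.5 to 54.0 in cluster 0, and its highest mean, 46.2, was in cluster 23 (led by C530043A13Rik), where the libraries spread from 13.7 to 87.3 and fresh 10x 1 and 2 hold only 11 and 22 cells. The mean of Notch3 was also highest in clusters 23 and 0, and in cluster 0 it was 18.8, 23.9, 30.8, 70.4 and 67.9. The BD libraries exceeded every 10x library in each of the 11 clusters except cluster 24, where stored 10x had 43.8 and BD 1 and BD 2 had 39.4 and 41.2, so the platform contrast of Notch3 was not held by a single epithelial cluster.

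**Figure D3:**
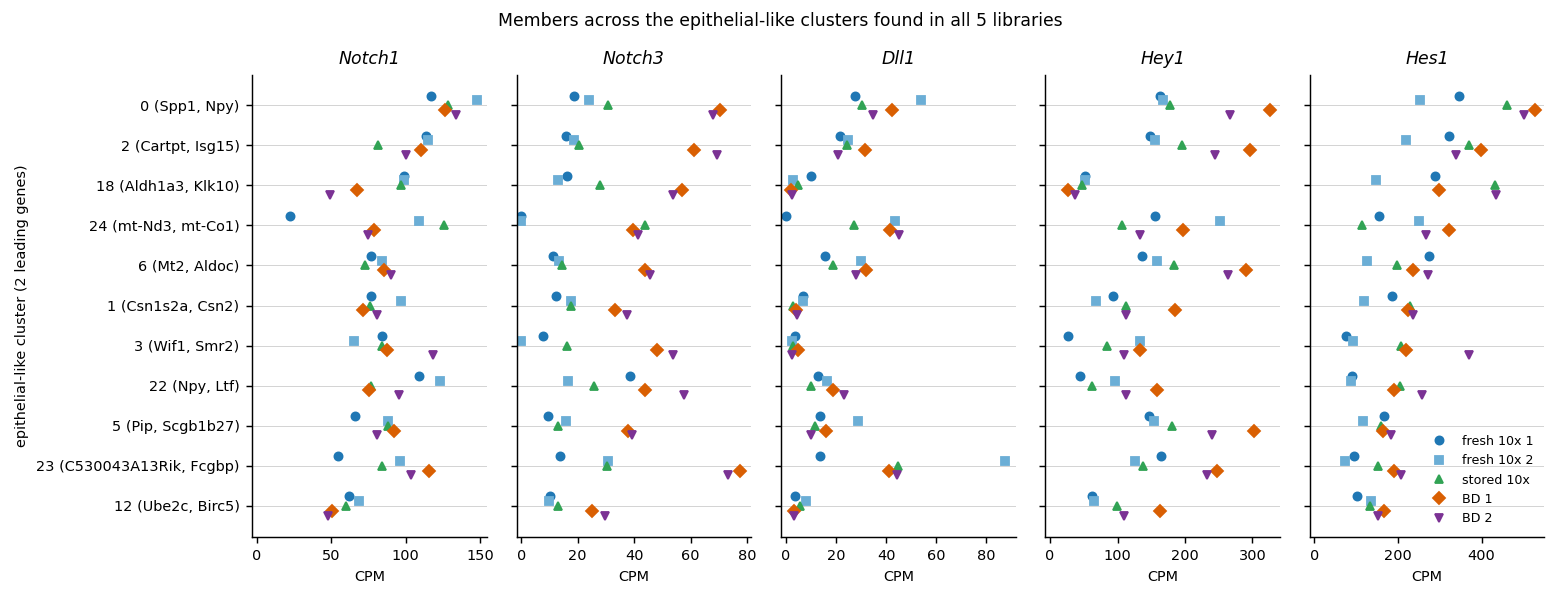
CPM of 5 members in the 11 epithelial-like clusters found in all libraries (rows, ordered by mean Hes1), with 1 point per library. By the mean over libraries, though not in each one, cluster 0 is highest for Notch1, Hey1 and Hes1 and cluster 12 lowest for Notch1, Notch3 and Hes1, and the BD points for Notch3 lie to the right of the fresh 10x points in every cluster.

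BD 1 was compared with fresh 10x, a fresh library of the other platform with fresh ones. Counts were summed per library or per class. They were tested with edgeR's quasi-likelihood test over all genes with Benjamini-Hochberg adjustment, at an adjusted p under 0.05. The deposited matrices differ too: each fresh 10x matrix lists 42562 gene names and BD 1 lists 32845. The lowest UMI total of a cell is 103 and 102 in fresh 10x and 2577 in BD 1. Platform cannot be told apart from these differences in gene list and cell cutoff. Nothing in the labels says whether the samples came from separate animals, and the residual spread comes from the 2 fresh 10x libraries, so p-values measure only the spread between these samples. In sums over all cells, fewer cells of a type and less RNA per cell cannot be told apart. In whole libraries, Notch2, Notch3 and Hey1 were higher and Dll4 was lower in BD 1, which is 4 of 10 genes beside 38.7% of all 16973 genes tested (20.1% higher and 18.6% lower), a share near the background. Notch3 was 19.1 and 19.3 CPM in fresh 10x, 38.6 in BD 1 and 41.6 in BD 2, a log2 fold change of 0.87 ± 0.11 (SE, adjusted p = 0.00595). Hey1 was 99.7 and 108, then 185 in BD 1 and 154 in BD 2 (0.70 ± 0.10, adjusted p = 0.00769). Notch2 was 12.9 and 10.2, then 21.9 and 20.0 (0.79 ± 0.19, adjusted p = 0.0303), a call that was lost without the filter on low counts (adjusted p = 0.0546) and with DESeq2 (0.0563).

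Dll4 had the largest change of the 10 genes in whole libraries. It was 17.3 and 11.5 in fresh 10x, 3.94 in BD 1 and 2.78 in BD 2, and fell by 2.01 ± 0.33 on the log2 scale in BD 1 (edgeR, adjusted p = 0.0113). Within endothelial-like cells the log2 fold change was -0.52 ± 0.21 (adjusted p = 0.0833), so the call was not made there. If each class of BD 1 is given the share of UMIs it had in fresh 10x, Dll4 becomes 0.750 times the fresh 10x mean instead of 0.273 times as measured. The same arithmetic takes Notch4 from 0.705 to 1.82 times and Notch3 from 2.01 to 2.89 times, and Hey1 stays near, at 1.79 and 1.89 times. As endothelial-like cells were fewer in BD 1, this arithmetic by its construction raises the members most restricted to them, Dll4 and Notch4. It tests no cause of the whole-library changes.

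Within epithelial-like cells, Notch3, Hey1 and Notch4 were higher in BD 1, 3 of 10 beside 41.9% of the 15386 genes tested (21.1% higher and 20.7% lower). Notch3 rose by a log2 fold change of 1.45 ± 0.12 (edgeR, adjusted p = 0.000142), from the 14.5 and 14.8 CPM above to 44.8. It had the largest fold change of the 10 genes in these cells, and in the 8 alternatives with a test the call was kept. Hey1 rose by 0.79 ± 0.11 (adjusted p = 0.0011). Notch4 was at 0.921 and 0.900 in fresh 10x, 2.25 in BD 1 and 1.61 in BD 2 (1.14 ± 0.38, adjusted p = 0.0462), a call at a low level that was lost with a filter on cells (0.06), with DESeq2 (0.362) and without fresh 10x 2 when the BD libraries were grouped by title (0.0594). Notch1, with 83.3 and 94.0 against 84.6, had a log2 fold change of -0.23 ± 0.11 (adjusted p = 0.153). The mitochondrial share given above also differs between the platforms in these cells, and its part in the fold changes was not tested. With only cells of at most 20% mitochondrial UMIs and at least 500 UMIs, Notch3 and Hey1 were again called.

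Within endothelial-like cells, Notch3, Notch4, Jag1 and Hes1 were higher in BD 1, 4 of 10 beside 20.5% of the 8532 genes tested (10.1% higher and 10.5% lower). Hes1 was 351 and 327 CPM in fresh 10x, 649 in BD 1 and 984 in BD 2 (0.98 ± 0.18, edgeR adjusted p = 0.000597; 0.146 with DESeq2). Jag1 was 36.8 and 48.8, then 104 in BD 1 but 48.6 in BD 2 (1.35 ± 0.28, adjusted p = 0.00177), and Notch4 76.5 and 105, then 155 and 134 (0.84 ± 0.25, adjusted p = 0.0228). Notch3 was 6.37 and 9.77, then 27.7 and 60.7 (1.85 ± 0.61, adjusted p = 0.0363), from 13 UMIs in the 45 cells of BD 1. The summed mural markers in the same cells were 289 and 377 in fresh 10x, 281 after storage, 688 in BD 1 and 887 in BD 2 (1 of 7, Cspg4, at 0 in stored 10x and in BD 2). Rgs5 (141 and 112 in fresh 10x, 451 in BD 1) and Abcc9 (75.8 and 92.2, then 172) made up most of the BD 1 sum, while Pdgfrb (21.2 and 17.4, then 2.13) and Kcnj8 (22.7 and 28.2, then 12.8) were lower in BD 1 and Acta2, Higd1b and Cspg4 did not exceed both fresh 10x libraries. In the 13 cells of BD 2, Rgs5 (474), Abcc9 (170), Acta2 (97.2) and Higd1b (85.0) exceeded both fresh 10x libraries. So did Kcnj8 (36.4) and Pdgfrb (24.3) there, from 3 and 2 UMIs, while Cspg4 was at 0. Beside the higher sums of BD 1 and BD 2, Notch3 was above both fresh 10x libraries, from 5 UMIs in BD 2. Notch3 was 21.3 in stored 10x, beside the lowest sum. Jag1 in BD 2, from 4 UMIs, was within the fresh 10x range. The part of the summed mural markers in these changes was not tested. With 1 fresh 10x library left out and the BD libraries grouped by title, the calls of Notch3, Notch4 and Jag1 were lost whichever was left out (adjusted p between 0.0601 and 0.531), while that of Hes1 was kept.

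Stored 10x was compared with the same fresh 10x libraries, so the comparisons share their controls. The stored 10x matrix lists 32845 gene names, against 42562 in fresh 10x, and its lowest UMI total of a cell is 1029. Storage cannot be told apart from these differences either. In whole libraries edgeR called 0 of the 10 genes, beside 0.147% of all genes (0.112% higher and 0.0354% lower; 25 of 16973, and 2694 at an unadjusted p under 0.05). Dll4, at 3.75 CPM against 17.3 and 11.5, had a log2 fold change of -1.87 ± 0.33 (adjusted p = 0.135, and 0.00084 with DESeq2). Notch3, at 19.2 against 19.1 and 19.3, had 0.07 ± 0.12 (adjusted p = 0.804), while mural-like cells were 0.77% of the named cells in stored 10x against 3.52% and 3.43% in fresh 10x. Within epithelial-like cells 0 of 10 were called beside 0.968% of genes (0.786% higher and 0.182% lower), with Notch3 at 0.41 ± 0.12 (adjusted p = 0.172) and Hey1 at 0.25 ± 0.11 (0.32). Within endothelial-like cells 1 of 10 was called, beside 3.26% of genes (2.56% higher and 0.703% lower): Hes1 rose from 351 and 327 to 577 (0.82 ± 0.18, adjusted p = 0.0108). That call was lost with the cell filter (0.058), with DESeq2 (1) and with either fresh 10x library left out when the BD libraries were grouped by title (0.649 and 0.876). Dll4 in these cells was 175 against 316 and 286 (-0.74 ± 0.20, adjusted p = 0.0517, and 0.0312 without the filter on low counts).

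**Figure D4:**
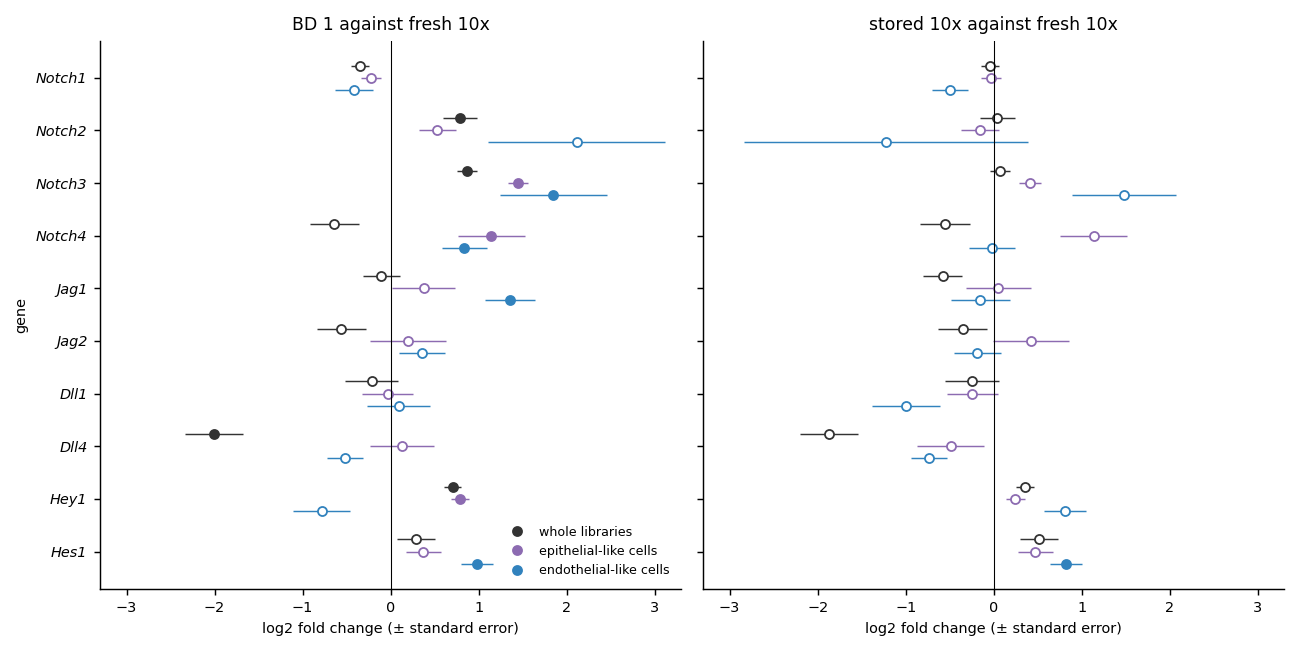
Log2 fold changes with standard errors of the 10 genes for BD 1 against fresh 10x (left) and stored 10x against fresh 10x (right), in whole libraries, epithelial-like cells and endothelial-like cells; filled points have an edgeR adjusted p under 0.05. Notch3 lies to the right of 0 in all 3 sets of cells on the left, and Dll4 in whole libraries lies near -2 in both panels.

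The other genes of the pathway were described with a list of 46 genes chosen for their textbook roles. For BD 1 against fresh 10x in whole libraries, 45 were tested, 19 were higher and 4 lower, beside 20.1% higher and 18.6% lower of all genes, with a median log2 fold change of 0.35 beside 0.03 over all genes. Within epithelial-like cells 18 of 41 were higher and 3 lower (all genes 21.1% and 20.7%; median 0.42 beside 0.02), and within endothelial-like cells 5 of 34 were higher and 1 lower (all genes 10.1% and 10.5%; median 0.26 beside -0.03). Of the 9 genes of receptor processing, 7 were higher in whole libraries and 6 in epithelial-like cells, beside the same 20.1% and 21.1%, and 0 were lower; the gamma-secretase subunit Ncstn was higher in both. The others did not pass the test, among them Aph1a, another subunit, with log2 fold changes of -0.042 and -0.055. The Fringe glycosyltransferase gene Lfng, which alters how receptors respond to ligands, was 3.22 and 1.80 CPM in fresh 10x and 12.4 in BD 1 (2.16 ± 0.35, edgeR adjusted p = 0.0108). It was also higher within epithelial-like (2.26 ± 0.39, adjusted p = 0.00336) and endothelial-like cells (2.29 ± 0.38, adjusted p = 0.000211).

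The Deltex family gene Dtx3 had 30.7 and 32.3 in fresh 10x, then 112 (1.70 ± 0.10, adjusted p = 0.00161), and Dtx4 had 4.90 and 3.56, then 15 (1.69 ± 0.24, adjusted p = 0.00781). Within epithelial-like cells Dtx3 (1.90), Dtx3l (1.39), Dtx4 (1.39) and Ncstn (1.11) followed Lfng in size. Within endothelial-like cells Dtx3l (2.36) was ahead of Lfng, and Dtx3 (1.51), Ncstn (0.92) and the gamma-secretase subunit Psenen (0.89) followed it. Among these, the calls of Ncstn and Psenen in endothelial-like cells were lost with either fresh 10x library left out and the BD libraries grouped by title (adjusted p between 0.162 and 0.733), and that of Dtx4 in epithelial-like cells with DESeq2 (0.0844). Of the nuclear complex, 4 of 11 genes were higher in whole libraries, Rbpj among them, and 1 was lower, beside 20.1% and 18.6% of all genes. Of the 6 listed targets, 5, 4 and 2 were tested in whole libraries, epithelial-like and endothelial-like cells. Higher were 0 in each set, beside 20.1%, 21.1% and 10.1% of all genes. Lower were 2, 1 and 1, beside 18.6%, 20.7% and 10.5%. Hes6, named after its value was seen, was lower in whole libraries (-0.89 ± 0.14, edgeR adjusted p = 0.00936) and in epithelial-like cells. The targets Hey1 and Hes1 are counted among the members and not in this list. Nrarp, a Notch target that limits the signal, was 12 and 10.5 in fresh 10x, then 4.22, and fell by 1.55 ± 0.23 in whole libraries (adjusted p = 0.00824). Mfng, another Fringe gene, was 7.99 and 4.96, then 2.55, and fell by 1.48 ± 0.40 (adjusted p = 0.0417), a call that was lost without the filter on low counts (0.0785) and with the cell filter (0.0538).

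In stored 10x, edgeR called 0 of 45 genes of the list in whole libraries, 0 of 41 in epithelial-like cells and 1 of 34 in endothelial-like cells, beside 0.147%, 0.968% and 3.26% of all genes. That gene was Nrarp, with 153 and 199 CPM in fresh 10x and 80.5 in stored 10x, which fell by 1.06 ± 0.25 (adjusted p = 0.0187). It was also the sixth gene of the list called in the endothelial-like cells of BD 1, named after its value was seen, where its level was 102 and it fell by 0.73 ± 0.26 (adjusted p = 0.0487). Both Nrarp calls were lost with DESeq2 size factors (0.058 stored, 0.0672 BD 1), with the cell filter (0.0904 and 0.108) and with either fresh 10x library left out (between 0.121 and 0.923). Dll4 and Nrarp both had higher levels in the 2 fresh 10x libraries than in the other 3 in these cells.

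**Figure D5:**
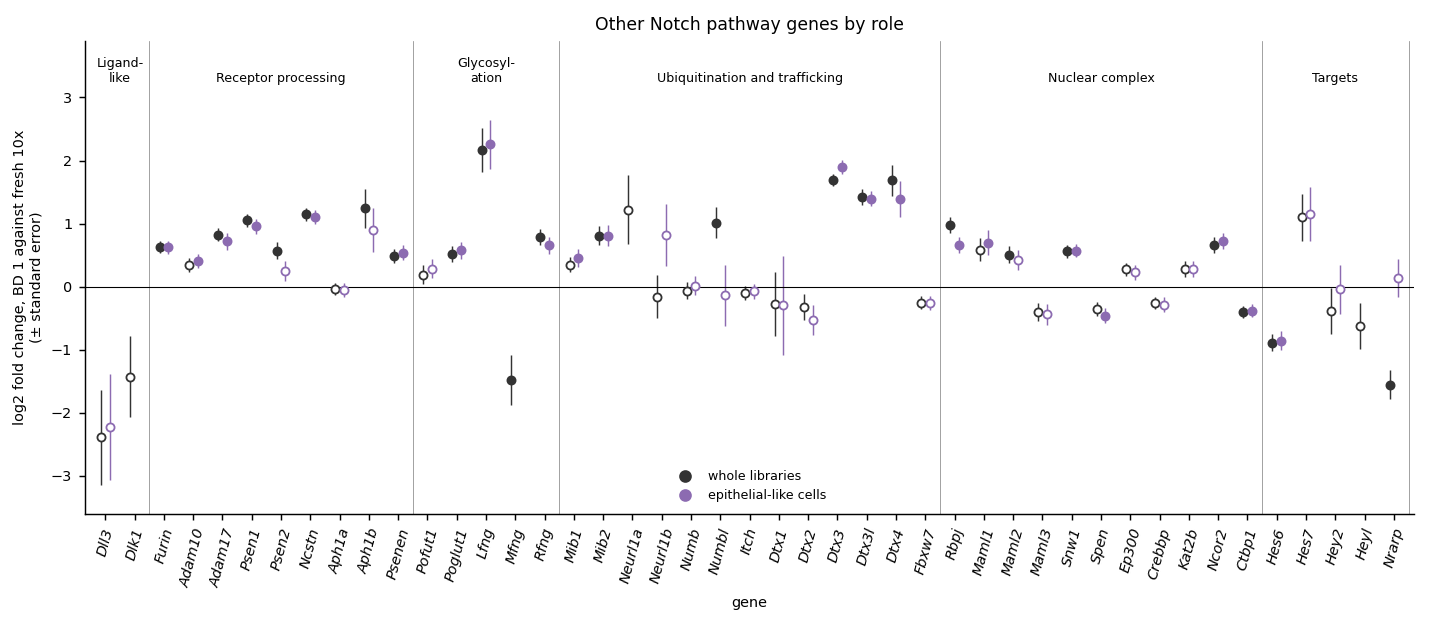
Log2 fold changes with standard errors of the other Notch pathway genes for BD 1 against fresh 10x, grouped by role, in whole libraries and epithelial-like cells; filled points have an edgeR adjusted p under 0.05. The receptor-processing genes called lie above 0, Lfng and the Dtx genes called are the highest, and Nrarp and Mfng in whole libraries lie near -1.5.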

How the data were processed

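The authors deposited raw UMI counts per gene and cell, whole numbers that were not normalised, as the values show. Cell Ranger 3.0.1 and mm10 are named in the submitters' processing notes, while for the annotation and the BD pipeline a name is not given in the sources used here. The 5 matrices of single samples were used, and a pooled matrix and 2 subset matrices of BD 1 were not used here. Spellings of a symbol were merged, which left 41028 names.

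Cells with at least 200 genes were clustered with scanpy 1.11.5 (counts scaled to 10000, 2000 variable genes, 30 components, 15 neighbours, Leiden resolution 1.0 with igraph 0.11.9). A cluster took the name of a marker list when at least 3 of its markers were in at least 20% of its cells, at 0.25 or more of the highest cluster's level; 1 mixed cluster was split. These thresholds and the treatment of the Schwann list as compatible with epithelial cells, which express some of its markers, were set after seeing the clusters. The doublet caller marked under 0.5% of the cells of every library, so doublets were not effectively removed.

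UMIs were summed per library or class and tested with edgeR 4.0.16 (R 4.3.3; quasi-likelihood, TMM, filterByExpr, Benjamini-Hochberg over all genes), checked on simulated data, where it recovered, for BD 1, 92 of 100 changes of 2-fold among 16508 genes in whole libraries and 30 of 100 among 7963 genes in endothelial-like cells. DESeq2 1.42.0, unfiltered genes, stricter cells, left-out libraries and regrouped BD libraries were alternatives. The members and lists were chosen with earlier results of these data known. Named are the 10 members, up to 5 called pathway genes of largest fold change per comparison, and the 3 genes most like each member. Depths of 29166129 to 59957945 UMIs per library set the intervals.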

Additional observations from a re-analysis of the deposited data

Results flagged for a closer look

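Hey1 in BD 1 lay on opposite sides of fresh 10x in 2 classes: it was 234 CPM in epithelial-like cells, above both fresh 10x libraries, and 42.6 (20 UMIs) in endothelial-like cells, below both (70.8 and 81.4). Jag2 in stored 10x was 1.35 in epithelial-like cells (60 UMIs), above both fresh 10x libraries (1.10 and 0.94, from 25 and 23 UMIs). In endothelial-like cells it was 65.3 (43 UMIs), below both (77.2 and 77). These differences between classes were not tested. BD 2, which enters no main comparison, lay above both fresh 10x libraries in whole-library level for 4 of the 10 genes, with 20.0 CPM for Notch2, 41.6 for Notch3, 154 for Hey1 and 249 for Hes1. It lay below both fresh 10x libraries for Notch1, Notch4, Jag1, Jag2 and Dll4, and between them for Dll1. The 10 genes thus had no common direction in BD 2. The share of all genes above or below both fresh 10x libraries was not computed, so these positions have no background.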

How the results depend on the processing

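Among the 10 genes, 12 fold changes were called over the 6 comparisons. None of them changed sign, and 19 of their 91 alternative tests lost the call. Of the uncalled fold changes, 22 alternative tests made a call. Sign changes occurred only among uncalled genes. With the cell filter, Jag2 in epithelial-like cells of BD 1 had a log2 fold change of -0.16 and Dll1 in endothelial-like cells -0.033. In endothelial-like cells of stored 10x, Notch4 had 0.00432 with DESeq2 size factors and 0.038 with the cell filter.

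Leaving out either fresh 10x library turned signs within these ranges. For BD 1 in whole libraries they were -0.24 to 0.032 (Jag1) and -0.52 to 0.17 (Dll1), or -0.60 to 0.092 (Dll1) with the BD libraries grouped by title. In epithelial-like cells they were -0.38 to 0.42 (Dll1) and -0.15 to 0.475 (Dll4), or -0.00612 to 0.62 (Jag1), -0.485 to 0.31 (Dll1) and -0.17 to 0.46 (Dll4) by title. For stored 10x they were -0.087 to 0.00577 (Notch1), -0.13 to 0.24 (Notch2) and -0.55 to 0.14 (Dll1) in whole libraries, -0.11 to 0.018 (Notch1), -0.41 to 0.097 (Notch2), -0.25 to 0.37 (Jag1) and -0.60 to 0.20 (Dll1) in epithelial-like cells, and -0.25 to 0.20 (Notch4) and -0.36 to 0.033 (Jag1) in endothelial-like cells. Leaving out a fresh 10x library alone leaves no residual degrees of freedom, so counts came from fits that also group the BD libraries by title, a setting added after seeing the data.

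Counts of genes called in stored 10x in whole libraries (25) became 67 with DESeq2 size factors, 2 without the filter, 345 with DESeq2 and 9 to 41 with a fresh 10x library left out. In epithelial-like cells (149) they became 502 without the filter, 29 with the cell filter and 720 to 936 with a library left out. In endothelial-like cells (278) they became 185 with DESeq2 size factors, 143 with the cell filter, 20 with DESeq2 and 74 to 102 with a library left out. For BD 1, DESeq2 called 3784 genes in epithelial-like cells (6442) and 102 in endothelial-like cells (1750), where leaving out a library gave 542 to 630; the whole-library and epithelial-like ranges were 7848 to 8185 and 8196 to 8263. The cause was not tested.

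The replicate number pairs fresh 10x with the BD libraries only by number (r = 0.097 between their differences over 16973 genes). With a replicate block, the BD libraries grouped by title and stored 10x left out, 9523, 8313 and 1151 genes were called in the 3 sets of cells, against 9053, 8541 and 1411 without the block.

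The epithelial-like share of Notch3 UMIs in BD 1 was 90.4% at Leiden resolution 2.0, 90.6% with a gate on markers, 77.7% at 2000 UMIs per cell and 90.8% over named cells. In BD 2 these were 92.8%, 90.4%, 78.3% and 92.7%, and 90.0% with the cell filter. The mural-like share was 5.01% and 4.49% with the cell filter and 9.48% and 7.55% at 2000 UMIs per cell, in BD 1 and BD 2. Depth limits the classes with few cells: the mural-like values of BD 2 rest on 7 cells.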
